A study of Mus musculus with 4 samples.

Results

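The genes described here are 9 members of the matrix metalloproteinase system, named by symbol among the 26809 genes of the expression tables. They are the secreted gelatinases Mmp2 and Mmp9, the stromelysins Mmp3 and Mmp10, the collagenase Mmp13, the membrane-bound protease Mmp14 (MT1-MMP), and the inhibitors Timp1, Timp2 and Timp3. RNA was sequenced on day 5 of reprogramming of mouse embryonic fibroblasts of C57BL/6 background. All 4 groups carried SeVdp(KOSMaB), a Sendai virus vector with the reprogramming factors Klf4, Oct4, Sox2 and Myc, and were selected with blasticidin S at 2 µg/mL. The control groups expressed Kusabira Orange, a fluorescent protein, and the other groups expressed Osr2, a zinc-finger transcription factor. Each kind of cell was grown without or with SB431542 at 10 µM, which inhibits the type I receptor kinases of TGF-β and activin. Each group has 1 library, so no difference below could be set against the spread between replicates, and no test of a group difference was made.

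Matrix metalloproteinases are zinc-dependent endopeptidases that cut collagens, proteoglycans and other matrix proteins outside the cell. They are made as inactive proenzymes whose propeptide covers the active site, and other proteases remove it. Tissue inhibitors of metalloproteinases bind the active enzymes. At the cell surface, Mmp14 and Timp2 together hold pro-Mmp2 for activation. Fibroblasts are a main source of several of these proteases and inhibitors, and TGF-β is known to change the transcription of many of them.

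As recovered from the deposited values, the untreated and treated control libraries held 18284642 and 13360730 reads, and the untreated and treated Osr2 libraries 14438427 and 1652507, where treated means grown with SB431542. Libraries are listed in this order throughout. Osr2 itself stood at 0.890 and 0.764 TPM (transcript abundance scaled to library size and gene length) in the control libraries without and with the inhibitor and at 59.1 and 13.7 TPM in the Osr2 libraries, in the direction of the labels. The Osr2 library with SB431542 stood apart. The 13 mitochondrial genes took 15.1% of its reads and 0.694% to 2.42% of those of the other 3. At its depth 9228 genes should have 20 reads or more by their level in treated control cells, and 198 of them had 0. In neither kind of cell did any gene have fewer reads in the untreated than in the treated column, and the numbers were equal for 2824 genes in control and 251 in Osr2 cells. A further set of values, called after read subtraction, has the treated reads taken out of the untreated column. Whether the treated reads are contained in that column was not tested. Over the genes used, the listed TPM summed to 345864, 452145, 270168 and 96038 in the 4 libraries, so values as deposited have no common total. The log2 ratio of the median gene was −0.80 (Osr2 against control without SB431542), −3.51 (with it), 0.46 (SB431542 in control cells) and −2.25 (in Osr2 cells). "Relative" values below are TPM divided by this shift, on the level of the control library without SB431542.

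Markers of fibroblasts were present in all libraries. Of 10 such markers, 9, 9, 10 and 6 reached 1 TPM in the 4 libraries. Their summed relative TPM ran from 445 in treated control cells to 13666 in untreated Osr2 cells, with 972 and 3183 in the other libraries. The markers did not move together. In treated Osr2 cells Col1a1 gave 284 of the 384 TPM summed as deposited, while Lum stood at 0. Relative to the median gene, Col1a1 differed by 3.53 on log2 from treated control cells and Dcn by −1.46. Of 10 macrophage markers, 6, 6, 9 and 4 reached 1 TPM, and their summed relative TPM was 24.3 and 24.4 in the control libraries against 138 and 152 in the Osr2 libraries. Neutrophil markers were at 0 to 1.23 TPM in sum, with S100a8, S100a9, Ly6g and Ltf at 0 in each library. Of 10 epithelial markers 6, 6, 2 and 0 reached 1 TPM, of 7 endothelial markers 1, 1, 1 and 0, and of 8 pluripotency markers none in any library. In such bulk samples, fewer cells of a type and less RNA per cell cannot be told apart.

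The promoters of 6 members are shown because those of the chromosome 9 genes share a pair of motifs that the others lack. RefSeq sequence was at hand for 7 of the 9 members, without Mmp2 and Mmp9. Given are the 120 bases before each annotated start, on the strand of the gene (GRCm38.p6). Capitals mark 3 motifs, each searched on both strands. The first is the AP-1 site, TGANTCA. The second is the TATA box, spelled TATAAA here. The last is the GC box, spelled GGGCGG, which reads CCGCCC where it lies on the other strand.
Mmp3, chr9:7445702-7445821, plus strand: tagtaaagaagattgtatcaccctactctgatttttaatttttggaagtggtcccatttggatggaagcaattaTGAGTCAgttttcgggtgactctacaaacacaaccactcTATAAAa
Mmp10, chr9:7502222-7502341, plus strand: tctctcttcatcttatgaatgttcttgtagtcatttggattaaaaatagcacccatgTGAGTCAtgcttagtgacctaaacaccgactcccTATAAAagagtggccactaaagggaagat
Mmp13, chr9:7272394-7272513, plus strand: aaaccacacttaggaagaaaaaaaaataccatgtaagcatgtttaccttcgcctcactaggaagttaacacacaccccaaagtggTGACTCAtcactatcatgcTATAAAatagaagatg
Mmp14, chr14:54431478-54431597, plus strand: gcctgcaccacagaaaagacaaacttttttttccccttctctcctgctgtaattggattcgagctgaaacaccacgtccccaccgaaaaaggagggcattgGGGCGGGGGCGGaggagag
Timp2, chr11:118355412-118355531, minus strand: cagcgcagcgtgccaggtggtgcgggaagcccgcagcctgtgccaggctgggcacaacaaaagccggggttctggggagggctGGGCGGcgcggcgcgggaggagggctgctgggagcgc
Timp3, chr10:86300292-86300411, plus strand: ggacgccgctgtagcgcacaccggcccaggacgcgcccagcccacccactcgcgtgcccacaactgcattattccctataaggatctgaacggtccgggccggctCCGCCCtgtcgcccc

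Mmp3, Mmp10 and Mmp13, which lie in 1 cluster on chromosome 9, each had an AP-1 site and a TATA box in the 250 bases before the start. The AP-1 site began 46, 63 and 35 bases before the start, and the TATA box 7, 29 and 16 bases before it. None of the promoters of Mmp14, Timp1, Timp2 and Timp3 held either motif in this window, and each of them held a GC box within 37 bases of the start. Over 32851 promoters of the same length, an AP-1 site was found in 6.75%, a TATA box in 12.4%, both in 1.21% and a GC box in 32.7%. An Ets site of the PEA3 type (AGGAAG) was found in 5 of the 7 members, all but Mmp10 and Timp2, and in 29.5% of all promoters. A Runx site (TGTGGT) was found in Mmp13 and Mmp14 and in 14.0% of all promoters. The TGF-β inhibitory element described in the rat Mmp3 promoter, searched by its consensus on both strands, was in none of the 7 and in 4.15% of all. The guanine and cytosine share of the window was 37.6%, 37.2% and 40.4% for Mmp3, Mmp10 and Mmp13, against 54.4% to 68.0% for the other 4 and a median of 52.4% over all promoters. A match is a run of letters and shows neither binding nor use.

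**Figure D1:**
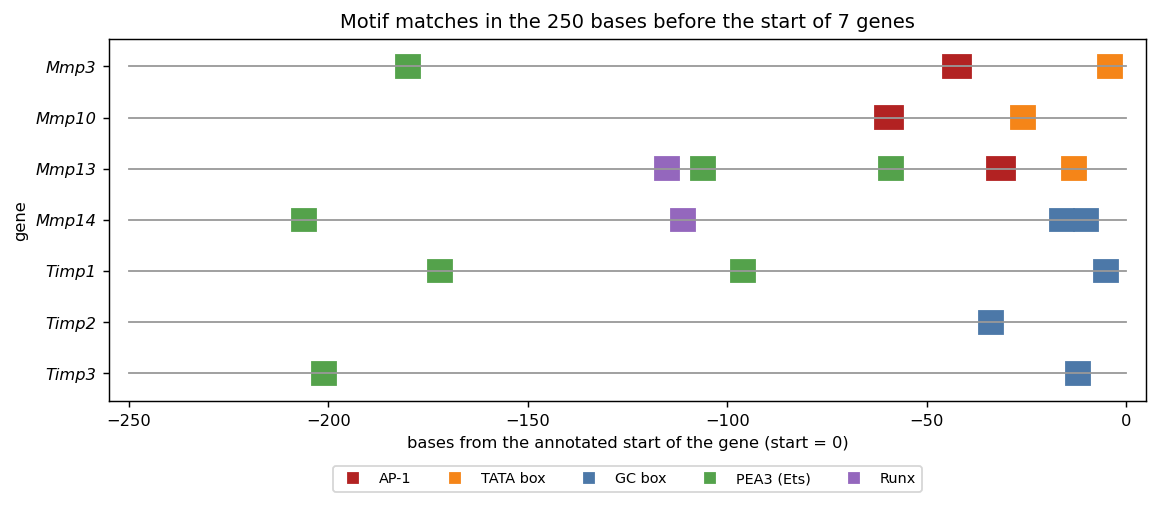
Positions of 5 motifs in the 250 bases before the annotated start of 7 member genes (x axis, bases from the start; 1 line a gene). Mmp3, Mmp10 and Mmp13 have an AP-1 site and a TATA box, and Mmp14, Timp1, Timp2 and Timp3 have GC boxes within 37 bases of the start.

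Among the proteases, Mmp14 (chromosome 14, 54431598 to 54442456) had the highest TPM of the 6 in every library. It stood at 20.7 TPM (1797 reads) and 20.5 TPM (970 reads) in the untreated and treated control libraries, against 133 TPM (11134 reads) and 6.73 TPM (251 reads) in those of Osr2 cells. The untreated Osr2 library was thus the highest and the treated Osr2 library the lowest on TPM as deposited. On relative TPM the order was 232 in untreated and 55.8 in treated Osr2 cells, then 20.7 in untreated and 14.9 in treated control cells. Without SB431542 the relative level was 11.2-fold higher with Osr2 (95% counting interval 10.7 to 11.8), and 6.32-fold (5.88 to 6.79) after read subtraction. Intervals on reads cover counting error only.

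Mmp2 (chromosome 8, 92827290 to 92853421), the gelatinase that Mmp14 activates, followed the same order on relative TPM. It stood at 11.8 TPM (578 reads) and 13.5 TPM (362 reads) in the untreated and treated control libraries, against 101 TPM (4782 reads) and 2.13 TPM (45 reads) in those of Osr2 cells. Its relative TPM was 11.8, 9.81, 176 and 17.7 in the same order of libraries, so that it was highest in untreated Osr2 cells by far. The difference with Osr2 was 15.0-fold (13.7 to 16.3) without SB431542, or 10.5-fold (9.18 to 12.1) after read subtraction.

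Mmp3 (chromosome 9, 7445822 to 7455975), a stromelysin that cuts proteoglycans and activates other proenzymes, was close to absent outside untreated Osr2 cells. It had 7 reads in each control library (0.267 and 0.489 TPM without and with SB431542), 302 reads (11.95 TPM) in untreated Osr2 cells and 1 read (0.0887 TPM) in treated Osr2 cells. Relative to the median gene it was 78.02-fold higher with Osr2 without SB431542 (37.4 to 196). All 7 reads of the untreated control column were matched by those of the treated one, so after read subtraction the gene had 0 reads there. As deposited the ratio was 44.8 (21.5 to 112), and after read subtraction 48.2 against a floor of 3 reads. That value takes the reads of Osr2 cells as exact, and the lower limit of the counting interval was 38.9. It passed the threshold of 1 TPM only through the library in which it was high, and a member that passes in this way had to differ.

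The other 3 proteases stayed below 1 TPM in all libraries. Mmp9 (chromosome 2, 164940326 to 164955850), the second gelatinase, had 21, 14, 6 and 3 reads in the libraries in the order given above, or 0.407, 0.498, 0.121 and 0.135 TPM. Its ratio of Osr2 to control relative to the median gene was 0.517 without SB431542, with a counting interval of 0.171 to 1.32 that includes 1, and 3.11 with it (0.572 to 11.1). As deposited these ratios were 0.297 (0.0981 to 0.761) and 0.272 (0.0501 to 0.975), both with intervals below 1, so that the direction with SB431542 differed by scale. After read subtraction the ratio without SB431542 was 0.206 (0.0343 to 0.901), on 3 reads against 7. Mmp13 (chromosome 9, 7272514 to 7283333), a collagenase that cuts type II collagen, had 12, 11, 12 and 0 reads. Its ratio without SB431542, relative to the median gene, was 1.81 (0.743 to 4.40), and 5.76 (0.852 to 246) after read subtraction, on 12 reads against 1. Mmp10 (chromosome 9, 7502342 to 7510242) had 9 reads (0.373 TPM) in untreated Osr2 cells and 0 in the other 3 libraries. Its values alone gave a length of 574 bases, and its read number was multiplied to reach the annotated 1722. The 9 reads, and the folds and limits given next, depend on that step, while the TPM does not. Against the floor of 3 reads in the untreated control library, which a count of 0 allows, the 9 reads gave at least 5.43-fold relative to the median gene, 3.12-fold as deposited and 1.44-fold after read subtraction. The 9 reads carry counting error of their own, and the lower limits of the counting intervals were 3.57, 2.05 and 0.947.

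**Figure D2:**
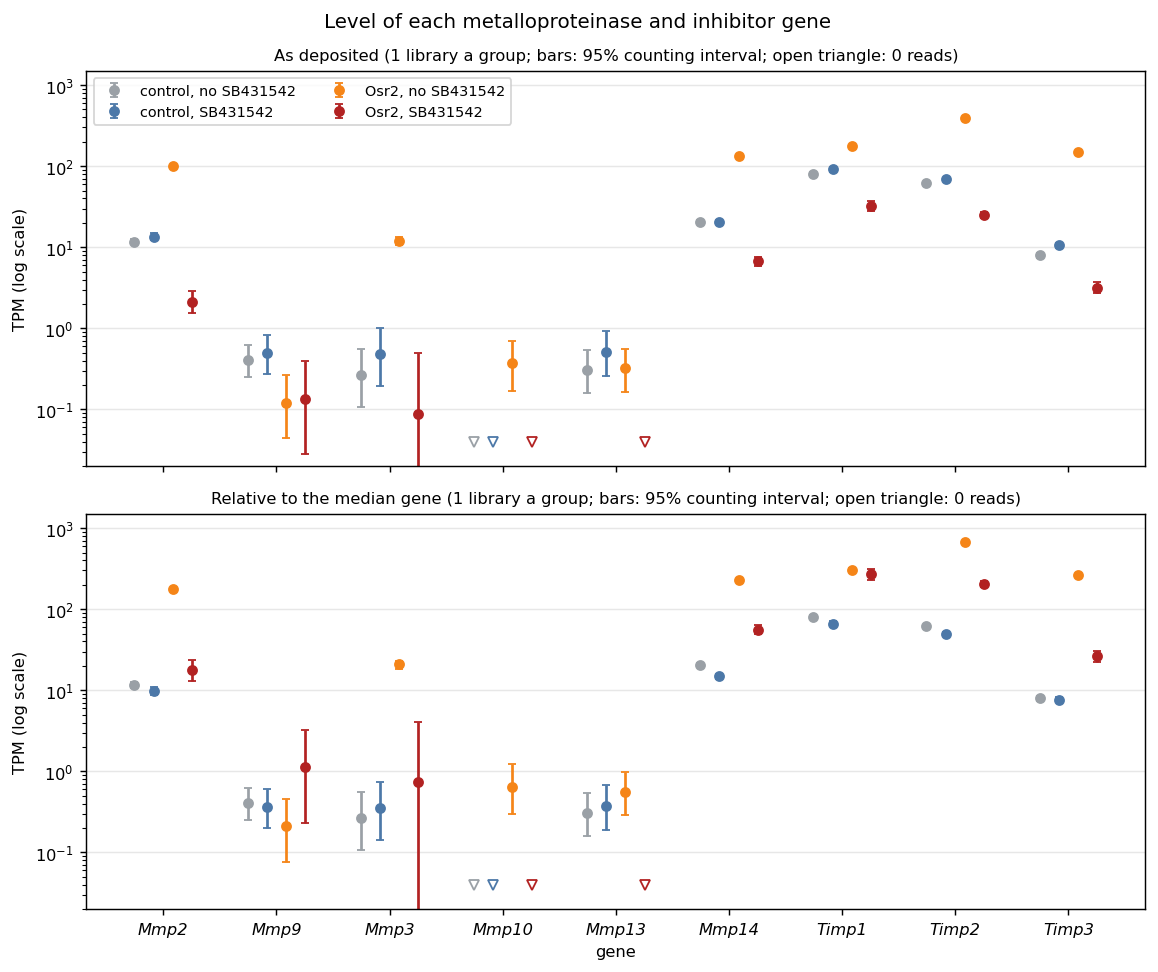
TPM of each member (log axis) in the 4 libraries, as deposited (upper panel) and relative to the median gene (lower panel), with 95% counting intervals; open triangles stand for 0 reads. Mmp2, Mmp3, Mmp14, Timp1, Timp2 and Timp3 are highest in untreated Osr2 cells in both panels, and treated Osr2 cells lie below both control libraries for these genes as deposited.

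The cluster on chromosome 9 that holds Mmp3, Mmp10 and Mmp13 has 10 Mmp genes in 427 kb (7272514 to 7699585). Reads were found for 5 of them: the 3 members, Mmp12 (macrophage elastase) and Mmp27. Genes with reads numbered 3 in each control library, 5 in untreated Osr2 cells and 1 in treated Osr2 cells. Before read subtraction, neighbours did not share a pattern. Mmp3 went from 7 reads in untreated control cells to 302 in untreated Osr2 cells, while Mmp12 went from 95 reads (0.900 TPM) to 14 (0.138 TPM) and Mmp13 had 12 in both. In treated control cells Mmp12 had 88 reads, and in treated Osr2 cells 0. Of the 95 reads of untreated control cells 7 are left after subtraction, against 14 in untreated Osr2 cells (log2 difference −0.01). Mmp13 then had 1 read against 12, Mmp3 0 against 301, Mmp10 0 against 9 and Mmp27 0 against 2. These are raw reads, not set to the depth of a library, and on them none of these 5 genes was lower in untreated Osr2 cells. On relative TPM after subtraction Mmp12 was at 0.231 in untreated control and 0.221 in untreated Osr2 cells. The paralogs of the cluster share sequence, and how reads with several matches were counted is not given in the sources used here.

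**Figure D3:**
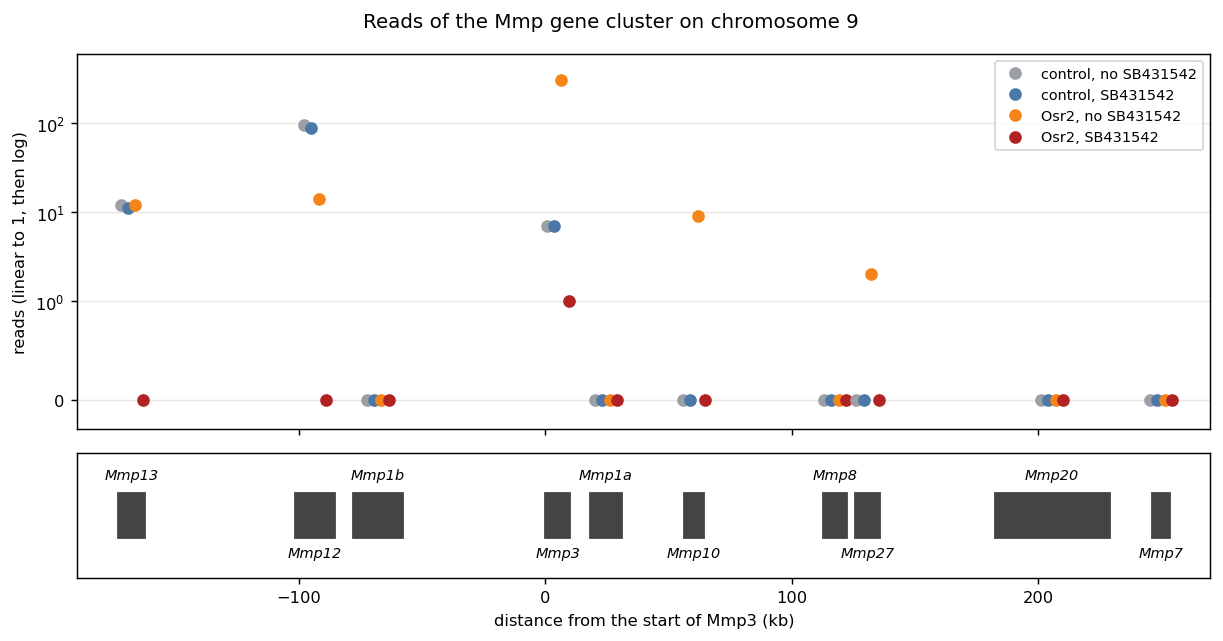
Reads of each of 10 Mmp genes on chromosome 9 in the 4 libraries (upper panel, symmetric log axis) over a map of the genes (lower panel, kb from the start of Mmp3). Mmp3 has 302 reads in untreated Osr2 cells and 7 or fewer elsewhere, Mmp12 is highest in the control libraries, and 5 genes have no read.

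Timp1 and Timp2 had higher TPM than any of the 6 proteases in every library, while Timp3 was below Mmp14 in all but untreated Osr2 cells. Timp1 (chromosome X, 20870166 to 20874737), a soluble inhibitor that cytokines and growth factors are known to induce, stood at 79.4 TPM (1028 reads) and 91.4 TPM (645 reads) in the untreated and treated control libraries, against 177 TPM (2209 reads) and 32.4 TPM (180 reads) in those of Osr2 cells. On relative TPM, the Osr2 libraries were at 309 and 268, both above the control libraries at 79.4 and 66.4. On this scale its ratio of Osr2 to control was 3.89 (3.61 to 4.19) without SB431542 and 4.04 (3.41 to 4.78) with it. After read subtraction the first of these was 2.54 (2.28 to 2.84).

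Timp2 (chromosome 11, 118301061 to 118355411), the partner of Mmp14 in the activation of pro-Mmp2, stood at 61.3 TPM (3480 reads) and 68.7 TPM (2127 reads) in control cells and at 387 TPM (21161 reads) and 24.9 TPM (607 reads) in Osr2 cells. It was the most abundant member in untreated Osr2 cells, at the 99.5th percentile of the 13509 genes with at least 1 TPM in at least 1 library. Relative to the median gene, its ratio of Osr2 to control was 10.997 (10.6 to 11.4) without SB431542 and 4.14 (3.77 to 4.53) with it. After read subtraction the first of these was 7.29 (6.90 to 7.71). As deposited the ratios were 6.32 (6.10 to 6.55) without SB431542 and 0.362 (0.331 to 0.397) with it.

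Timp3 (chromosome 10, 86300412 to 86349505), the inhibitor that binds to the matrix, stood at 7.95 TPM (944 reads) and 10.6 TPM (684 reads) in control cells and at 151 TPM (17306 reads) and 3.16 TPM (161 reads) in Osr2 cells. Untreated Osr2 cells were far above the other 3 libraries. Without SB431542 the ratio of Osr2 to control was 33.2 (31.1 to 35.4), and 31.7 (28.0 to 35.9) after read subtraction. With SB431542 it was 3.41 (2.86 to 4.06). Of its exons, 1733 bases lie on the opposite strand of exons of Syn3, and whether counting used strand is not given in the sources used here. Syn3 stood at 0.0521 to 0.325 TPM (4 to 56 reads) in the 4 libraries.

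The 4 comparisons below share libraries, so their values are given side by side and are not independent. For counts, a gene was called higher or lower when log2(TPM + 1), relative to the median gene, differed by at least 1. Of the 9 members 6 reached 1 TPM in at least 1 library (Mmp2, Mmp3, Mmp14 and the 3 Timp genes). With Osr2 and no inhibitor, all 6 were higher and 0 lower, with a median log2 difference of 3.62, or 5 of 5 and 3.44 without Mmp3, while among the 13509 genes the shares were 16.6% and 11.4% and the median −0.02. The other 3 members differed by −0.22 (Mmp9), 0.72 (Mmp10) and 0.25 (Mmp13). Of the 6, Timp3 ranked highest among all genes (percentile 99.8) and Timp1 lowest (94.2). On TPM as deposited, 6 were also higher (7.78% of all genes higher, 30.6% lower), with a median of 2.82, and after read subtraction likewise 6 (17.4% and 12%), with a median of 3.08. Summed markers of fibroblasts and macrophages were also higher in this library, as given above, and their part in these differences was not tested.

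With SB431542, 4 of the 6 were higher with Osr2 and 0 lower, against 19.9% and 27.9% of all genes, with a median of 1.74 against −0.21. They are Mmp14 (log2 difference 1.84), Timp1 (2.00), Timp2 (2.03) and Timp3 (1.65). Mmp2 differed by 0.79, or 1.80-fold (1.29 to 2.46), and Mmp3 by 0.36 on 1 read against 7. After read subtraction 4 were again higher (18.7% of all genes). The direction differed by scale. On TPM as deposited 0 were higher and 5 lower, as were 0.348% and 88.1% of all genes. The 4 genes just named then differed by −1.47, −1.47, −1.43 and −1.48. The listed TPM summed to 96038 in treated Osr2 cells and to 452145 in treated control cells. When the libraries were set to the same total of listed TPM, 0 were higher and 0 lower. Of the members, Mmp10 and Mmp13 had 0 reads in treated Osr2 cells.

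**Figure D4:**
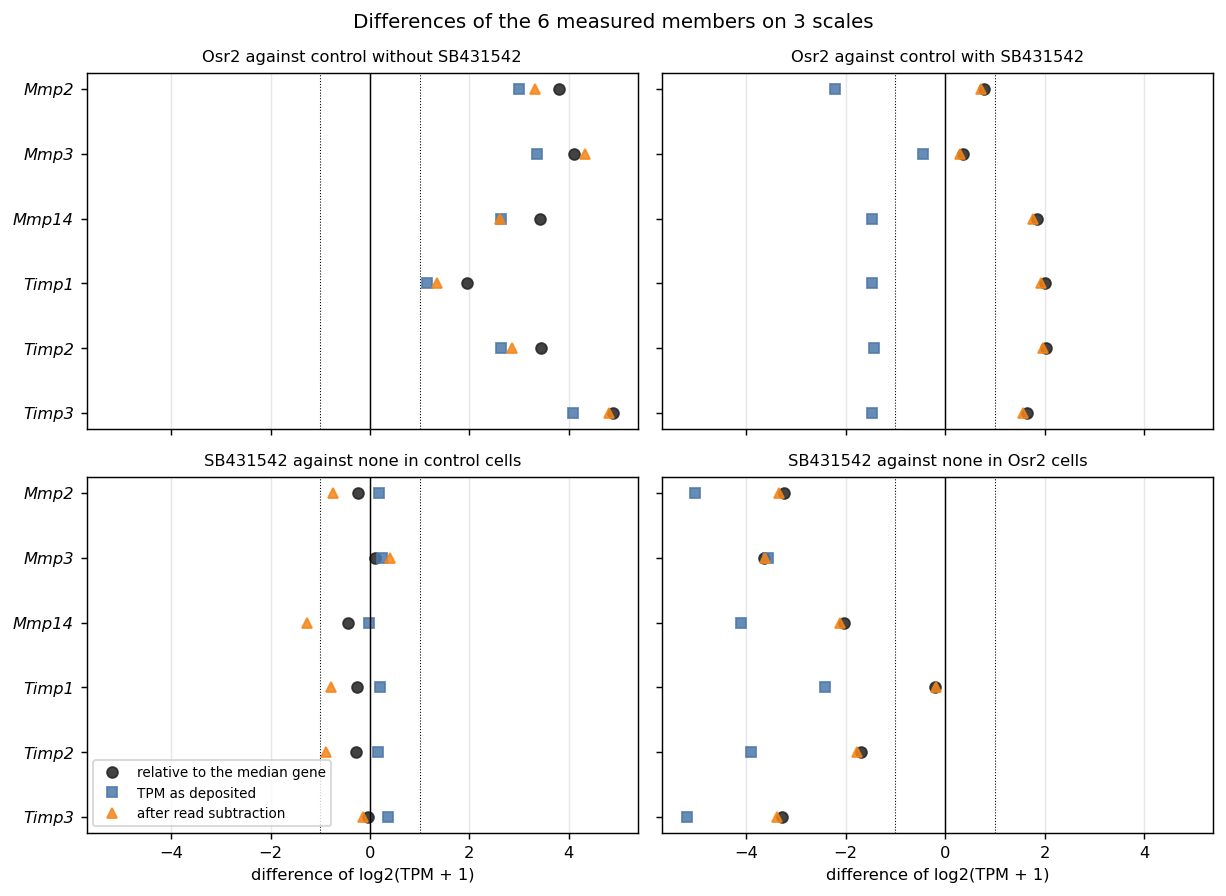
Difference of log2(TPM + 1) of the 6 members that reached 1 TPM (x axis) in each of 4 comparisons, relative to the median gene (circles), as deposited (squares) and after read subtraction (triangles); dotted lines mark a difference of 1. All 6 lie above 1 on each scale for Osr2 against control without SB431542, and for the same comparison with SB431542 the deposited values lie on the other side of 0.

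In control cells, no member reached a difference of 1 with SB431542. The 6 differences ran from −0.45 (Mmp14) to 0.10 (Mmp3), with a median of −0.25, and 0% of all genes were higher and 0.577% lower. The 0% was fixed in advance. No gene had fewer untreated than treated reads, so no relative ratio could exceed 1.33, the value for equal reads. As deposited 0 members were again lower, as were 0.341% of all genes. In this comparison shared reads limit what can be seen: the treated reads matched 53.98% of the untreated reads of Mmp14, 61.1% of Timp2, 62.6% of Mmp2, 62.7% of Timp1 and 72.5% of Timp3. After read subtraction 9.99% of all genes were higher and 6.38% lower, and 1 member, Mmp14, was lower (−1.26, or 2.50-fold, counting interval 2.28 to 2.75). Timp2 was then 1.87-fold lower (1.74 to 2.00), Mmp2 1.75-fold (1.47 to 2.08) and Timp1 1.74-fold (1.53 to 1.98), while Timp3 was 1.12-fold lower with an interval that includes 1 (0.964 to 1.29).

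In Osr2 cells, 5 of the 6 were lower with SB431542 and 0 higher, against 26.7% and 16.5% of all genes, with a median of −2.64 against −0.16. Mmp3 passed the threshold through the untreated library of this comparison, and without it 4 of 5 were lower, with a median of −2.04. Mmp3 was 28.3-fold lower, with an interval of 5.04 to 1121 that reflects its 1 read. Timp3 was 10.1-fold lower (8.62 to 11.8), Mmp2 9.95-fold (7.43 to 13.7), Mmp14 4.15-fold (3.67 to 4.73) and Timp2 3.27-fold (3.01 to 3.55). Timp1 differed by −0.20, or 1.15-fold lower with an interval that includes 1 (0.987 to 1.35). After read subtraction 5 were lower and 0 higher (26.8% and 18.9% of all genes), and the treated reads matched 0.331% to 8.15% of the untreated reads of the 6. On TPM as deposited all 6 were lower and 0 higher, as were 64.1% and 0.118% of all genes, with Timp1 at −2.42 and Timp3 at −5.20. The treated library has the high mitochondrial share and the genes at 0 reads given above, and their part in these differences was not tested.

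Ratios within a library do not depend on how libraries are scaled. The summed TPM of the 3 Timp genes was 4.45 times that of the 6 Mmp genes in control cells without SB431542 (counting interval 4.21 to 4.70) and 4.81 times with it (4.48 to 5.16). In Osr2 cells the ratio was 2.90 without SB431542 (2.84 to 2.96) and 6.65 with it (5.75 to 7.69). Untreated Osr2 cells thus had the lowest ratio of inhibitor to protease RNA and treated Osr2 cells the highest. With all 27 Mmp and Timp genes of the table the ratios were lower, at 2.41, 2.55, 2.05 and 3.81, with the same lowest and highest library.

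The shares of Timp1 and Timp2 in the inhibitor sum were nearly the same in 3 of the 4 libraries. Timp1 held 53.4% and 53.6% of the summed Timp TPM in control cells without and with SB431542 and 53.6% in treated Osr2 cells, but 24.8% in untreated Osr2 cells. Timp2 held 41.2%, 40.3% and 41.2% in the same 3 libraries and 54.1% in untreated Osr2 cells, and Timp3 5.35%, 6.19% and 5.23% against 21.2%. The ratio of Timp1 to Timp2 was 1.30 in untreated control cells (1.21 to 1.39), 1.33 in treated ones (1.22 to 1.45) and 1.30 in treated Osr2 cells (1.10 to 1.54), against 0.458 (0.438 to 0.479) in untreated Osr2 cells. The first 3 intervals overlap and the last lies apart from them. The ratio of Timp3 to Timp2 was 0.130 (0.121 to 0.139) in untreated control cells. In treated ones it was 0.154 (0.141 to 0.168), and these intervals do not overlap. It was 0.127 (0.106 to 0.151) in treated and 0.391 (0.383 to 0.399) in untreated Osr2 cells. After read subtraction untreated control cells stood at 0.0919 (0.0802 to 0.105). In control cells treated reads matched 61.1% to 72.5% of the untreated Timp reads.

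Within the activation complex, Timp2 was 2.96 times Mmp14 on TPM in untreated control cells (2.80 to 3.14) and 2.91 times in untreated Osr2 cells (2.84 to 2.98), while their folds with Osr2 were 10.997 and 11.2. With SB431542 the ratios were 3.35 (3.11 to 3.62) and 3.70 (3.19 to 4.30). After read subtraction untreated control cells stood at 2.50 (2.29 to 2.73), below untreated Osr2 cells at 2.89 (2.82 to 2.96). The ratio of Mmp2 to Mmp14 was 0.569 (0.517 to 0.625) and 0.660 (0.583 to 0.745) in control cells without and with SB431542, 0.759 (0.734 to 0.786) in untreated Osr2 cells and 0.317 (0.226 to 0.437) in treated ones. Mmp14 held 61.9%, 57.7%, 53.9% and 74.1% of the summed Mmp TPM in the 4 libraries, and Mmp2 35.2%, 38.1%, 40.9% and 23.5%.

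**Figure D5:**
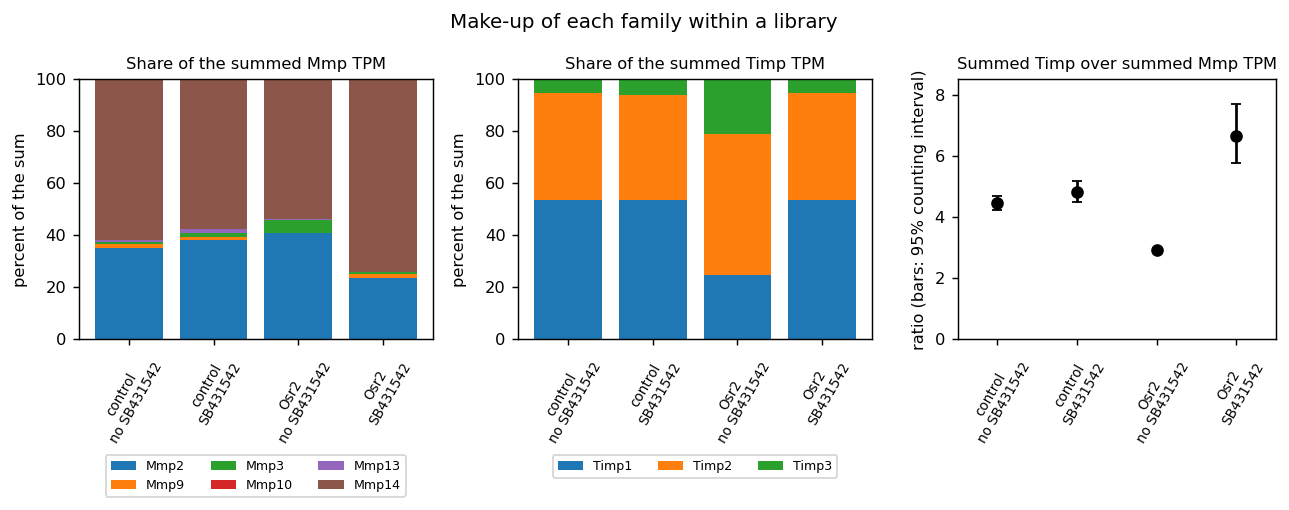
Share of each member in the summed TPM of the 6 Mmp genes (left) and the 3 Timp genes (middle), and the ratio of the sums with 95% counting intervals (right), in each library. Timp1 holds 53.4% to 53.6% of the Timp sum in 3 libraries and 24.8% in untreated Osr2 cells, and the ratio is 2.90 in untreated and 6.65 in treated Osr2 cells.

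Genes of related function were counted from lists beside the members, to be read against the shares over all genes given above. Relative to the median gene these were 16.6% higher and 11.4% lower with Osr2 without SB431542, and 19.9% and 27.9% with it. Of 17 other Mmp genes and Timp4, 8 reached 1 TPM, and without SB431542 6 of these were higher and 0 lower, but 2 were higher as deposited and 4 after read subtraction. Mmp11 (stromelysin 3) stood at 4.74 against 38.5 TPM (log2 difference 3.56) and Mmp23 at 9.82 against 44.2 TPM (2.85). With SB431542 3 were higher and 2 lower, and the lower ones, Mmp12 and Mmp19, had 0 reads in treated Osr2 cells. Of 20 Adam and Adamts genes 12 were higher and 0 lower without SB431542, with the aggrecanase Adamts1 at 3.30 and Adam33 at 3.07, against 7 and 1 as deposited. With SB431542 3 of the 20 were higher and 3 lower, both smaller shares than over all genes. In the plasminogen system, which activates several proenzymes, 5 of 6 measured genes were higher and 0 lower (4 and 0 as deposited), with the urokinase Plau at 2.95. With SB431542 3 of the 6 were higher and 0 lower, with the urokinase receptor Plaur at 2.58 and Plau at 2.05.

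Of 8 measured regulators of Mmps, 6 were higher with Osr2 without SB431542 and 0 lower (5 and 0 as deposited). Lrp1, an endocytic receptor that clears Mmp and Timp complexes, differed by 4.43 and thrombospondin 1 (Thbs1) by 4.02. With SB431542 2 were higher and 1 lower, with Thbs1 at 2.45, the proprotein convertase Furin at 2.20 and Cd44 at −1.16. Of 14 measured matrix substrates 12 were higher and 1 lower without SB431542 (10 and 1 as deposited). Elastin (Eln) stood at 0.246 against 174 TPM (7.93) and the proteoglycan biglycan (Bgn) at 22.3 against 312 TPM (4.54), while laminin α1 (Lama1) was the lower one at −3.44. With SB431542 8 substrates were higher and 3 lower. All 8 cathepsins were higher without SB431542, with Ctsk at 3.85 and Ctsl at 2.14, but 4 of them as deposited. With SB431542 1 cathepsin was higher and 1 lower. In control cells with SB431542 no list could have a higher gene relative to the median gene, because of the shared reads given above. There 3 of 14 substrates and no gene of the other lists were lower. After read subtraction the lower genes there were 1 of 8 other Mmp genes, 4 of 20 Adam and Adamts genes, 2 of 6 genes of the plasminogen system, 2 of 8 regulators, 6 of 14 substrates and 0 of 8 cathepsins, and as deposited no list had any. As deposited, the median difference of each list with Osr2 and SB431542 was below 0, from −2.84 for the regulators to −1.23 for the plasminogen system.

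The genes whose pattern over the 4 libraries was most like that of a member were sought among 7863 genes of mean TPM of at least 5, by Euclidean distance between centred log2 relative values. Nearest to Timp1 were Msn (distance 0.03), Clic1 and Vgll3. Nearest to Mmp14 were Ltbp2 (0.09), Mmp11 and Svep1, and to Timp2 Gpr153 (0.17), Slit2 and Lbh. Mmp2 was nearest to Serpinf1 (0.17), Timp3 to Tnxb (0.20) and Mmp3 to Hmox1 (0.30). With 4 libraries these distances describe the libraries and carry no error.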

How the data were processed

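Poly(A) RNA was sequenced in 4 libraries, 1 per group. Per the series design text, the authors mapped reads to GRCm38.p6 with STAR 2.7.3a, counted them per gene with featureCounts 2.0.0 and deposited TPM values. Of 27304 entries, 26 with names turned into dates and 469 that share 140 symbols were left out. Another 4 deposited columns match no sample and were not used. Whole reads were recovered because the 4 values of a gene are whole multiples of 1 read over 1 length, within 0.001. The values fix a length only up to a whole factor. Where the GENCODE M21 exon length was a whole multiple of the recovered length, reads and length were multiplied to reach it. After this step the lengths equalled the annotated ones for 99.8% of 18151 genes, which is not an independent check of the recovery. Of the 9 members, 8 had the annotated length from the values alone. On simulated data, 93.3% of 18163 genes were recovered exactly. Libraries were set to the median gene over 7868 genes whose mean was 5 TPM or more. Differences are of log2(TPM + 1), a scale that understates those of low genes. Counting intervals are 95% intervals (Clopper-Pearson for ratios of reads, Poisson for levels, a log-normal approximation for ratios of sums). Python 3.11.15, numpy 2.4.6 and scipy 1.17.1 were used. The members, lists, motifs and scales were chosen with earlier results of these data known. All 9 members are named, and of each list the 2 genes with the largest difference in each direction, of which the text gives examples, and 1 of these genes is not reported here.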

Additional observations from a re-analysis of the deposited data

Results flagged for a closer look

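The log2 difference of Mmp3 with SB431542, relative to the median gene, was 0.10 in control and −3.65 in Osr2 cells, so that the 2 values have opposite signs and differ by −3.75. The difference was not tested, as each group has 1 library. The value in control cells comes from 7 against 7 reads, a ratio of 1.33 with a counting interval of 0.399 to 4.45, and shows no direction. Any gene with equal reads in both control columns has this ratio, the largest that their shared reads allow. The value in Osr2 cells comes from 1 against 302 reads. Mmp3 passed the threshold of 1 TPM only through the untreated Osr2 library. The same difference on deposited TPM was −3.81, and −4.03 after read subtraction.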

How the results depend on the processing

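For each comparison 8 alternatives were run. For Osr2 against control without SB431542, 6 members were higher and 0 lower under each of the 8. With SB431542, 4 were higher and 0 lower under 6 of them, but on TPM as deposited 0 were higher and 5 lower, with Mmp14 at −1.47, Timp1 at −1.47, Timp2 at −1.43 and Timp3 at −1.48, and with equal totals of listed TPM 0 were higher. These scalings differ from the main one by a factor common to all genes of a library. SB431542 in control cells gave 1 lower member after read subtraction and 0 under the other 7, and in Osr2 cells 5 or 6 lower under all 8. The ratio of summed Timp to summed Mmp TPM moved in control cells without SB431542 to 3.95 and in untreated Osr2 cells to 2.84 after read subtraction, and with all Mmp and Timp genes to 2.41, 2.55, 2.05 and 3.81. Leaving out Mmp3, an alternative chosen after seeing the data, gave 5 higher, 4 higher, 0 lower and 4 lower in the 4 comparisons. No paired analysis was possible because each group has 1 library. The depth of the treated Osr2 library limits Mmp3, Mmp9, Mmp10 and Mmp13, with 0 to 3 reads each there.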
